A study of Homo sapiens with 6 samples.

Results

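The cytosolic ribosomal protein genes were examined in RNA-seq data from cells labelled Hep3B, a human hepatocellular carcinoma line. They were taken by name and annotation, as protein-coding genes named RPL, RPLP or RPS with a number and at most one letter A or X. Kinases named RPS6K and paralogues with a trailing L were left out, as were RPSA, FAU and RACK1, whose names fall outside the pattern. The rule found 76 genes among the 27009 in the table, 46 of the large and 30 of the small ribosomal subunit, spread over 21 chromosomes. All 76 passed the filter on low values, which asked for 10 scaled reads or more in no fewer than 3 libraries and left 15076 genes for testing.

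The study compared gene expression between cells carrying nPD-L1, a PD-L1 mutated so that it stays in the nucleus, and cells with the empty vector. Endogenous PD-L1 (gene CD274) had been knocked out in both groups, so the controls also lack it. nPD-L1 was carried by the lentiviral plasmid pCDH-CMV-Puro, which drives expression from a CMV promoter. The plasmid of the empty vector is not named in the sources used here, and infected cells were selected with puromycin or G418. Each group had 3 libraries (vector 1 to 3 and nPD-L1 1 to 3). The study calls its sequenced samples independent, and the sources used here do not say whether that means separate cultures or whether each line was a single clone. p-values therefore measure only the spread between these libraries, which may be technical.

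CD274 itself was low in all 6 libraries. It had 28.3, 38.4 and 47.8 scaled reads with vector and 16.8, 19.2 and 30.9 in libraries labelled nPD-L1, so it was not higher where the construct is named (log2 fold change −0.77, limma adjusted p = 0.338). The labels are therefore used below as names only. At the protein level, the study reports PD-L1 enforced in the nucleus of its Hep3B cells, which RNA counts do not measure. Of the hepatocyte markers, the fibrinogen genes FGA, FGB and FGG were well covered, between 658 and 3286 scaled reads in each library. ALB, TTR, APOA1, APOA2, APOB and TF, which define hepatocytes, lay between 0 and 2.89 scaled reads in every library. 5 of the 11 hepatocyte markers in the table passed the filter, and together the 11 held between 0.0197% and 0.0304% of a library. HNF4A, a liver transcription factor, was the 1 called among them, higher in the libraries labelled nPD-L1 (log2 fold change 1.91, limma adjusted p = 0.0232). It was not called without nPD-L1 1, 2 or 3, where the adjusted p was up to 0.134. Of the 5 tested hepatocyte markers 3 were below 0, and their median log2 fold change as a list was −0.11. The leukocyte markers (3 in the table) and endothelial markers (2 in the table) all failed the filter. Of 4 fibroblast markers, LUM and COL1A1 passed, and COL1A1 was higher in the libraries labelled nPD-L1 (log2 fold change 2.84, limma adjusted p = 7.99e-06). The name Hep3B is likewise taken from the labels, and the identity of the cells was not tested. The part of these markers in the results below was not tested.

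The cytosolic ribosome is built from ribosomal RNA and about one protein of each kind, so its protein genes are among the most strongly expressed of growing cells, and they are usually made in step. In animals their mRNAs are short and begin with a cytosine followed by a run of pyrimidines, the terminal oligopyrimidine (TOP) start, which lets mTORC1 and LARP1 control their translation. An mRNA count as measured here says nothing on that translation. Several members have known roles outside the ribosome. RPL5 and RPL11, for example, bind MDM2 together with 5S ribosomal RNA when assembly is disturbed.

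The TOP start is the sequence feature that these genes share without the name rule having used it. RefSeq starts (GRCh38.p14) were found for 61 of the 76 genes. At 1 or more of its listed starts, a C followed by at least 4 pyrimidines was present in 45 of the 61 (73.8%), against 7.43% of 10033 tested coding genes and 5.14% of all 27305 genes in that table. A run of this kind beginning within 10 bases of the start was found in 56 (91.8%, against 42.2% of tested coding genes). The runs are shown for 10 genes to which later results refer, as 30 bases read 5′ to 3′ on the gene's own strand, 20 before the start and 10 from it. Capitals mark the pyrimidine run from its C nearest the start, counted up to the edge of the window. Pyrimidines directly before that C stay in lower case.

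RPLP0 (chr12:120201102-120201131, minus strand): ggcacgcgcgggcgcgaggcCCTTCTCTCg
RPLP1 (chr15:69452798-69452827, plus strand): gctgcgtataggcgcgagagCCCCTTTCCT
RPLP2 (chr11:809947-809976, plus strand): gcctcttgcgtcggcgccttCCTTTTCCTC
RPL11 (chr1:23691786-23691815, plus strand): tcggccggaagctccgctttCTCTTCCTgc
RPL41 (chr12:56116613-56116642, plus strand): gtagacggaacttcgcctttCTCTCggcct
RPL36A (chrX:101390991-101391020, plus strand): ttccgtttgcctcgcggtttCTTTCTTTCC
RPS6 (chr9:19380227-19380256, minus strand): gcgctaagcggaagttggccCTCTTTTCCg
RPS10 (chr6:34426060-34426089, minus strand): cagcaccgcgcatgctccttCCTTTCCagc
RPL3 (chr22:39319614-39319643, minus strand): gacccgtaaggccgaccggCCTCTaccggc
RPS29 (chr14:49598701-49598730, minus strand): ttttcccccgagcgcgcagctggcagcggt

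In 8 of these the C stands on the listed start itself. RPL11 has another listed start, not shown, which is an A with a run beginning 4 bases after it. In RPL3 the run begins 1 base before the listed start, and at the listed start of RPS29 there is none. Other short motifs were searched on both strands of the 300 bases around each start. CCGGAAG, a core bound by ETS factors, was in 36.1% of the 61 genes and in 22.3% of tested coding genes. AAGATGG, a core of YY1 sites, was in 13.1% against 9.5%, and TATAAA in 8.2% against 8.27%. These are matches of letters only.

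None of the 76 ribosomal protein genes was called higher or lower between the groups. The call was a Benjamini-Hochberg adjusted p under 0.05 in limma on log2(scaled reads + 1), with no fold threshold, and it took 4.96% of all tested genes (4.04% higher and 0.922% lower in the libraries labelled nPD-L1). The lowest adjusted p of a member was 0.529, for RPL30. At an unadjusted p under 0.05 the count was 0 of 76 too, where 14.2% of all genes passed. On the recovered whole reads, edgeR's quasi-likelihood test (5.03% of genes) and DESeq2 (6.37% of genes) also called 0 members, and 0 passed an unadjusted p under 0.05 in either. In no member were the 3 values of one group all above those of the other, which held for 20.6% of all genes.

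The fold changes themselves were small and alike. The median log2 fold change of the 76 genes was −0.19, a ratio of 0.878, against −0.02 over all tested genes. It was below 0 in 72 members, as it was in 53.3% of all genes, and lay between −0.30 and −0.10 in 70 of them. The standard error was 0.156 at the median, and the 95% interval of every member held 0. The median interval ran from −0.53 to 0.16, and all 76 intervals lay within −0.74 and 0.98, so that a change of 2-fold lay outside every one. Large-subunit genes (median −0.18) and small-subunit genes (median −0.20) had similar values.

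The members took 7.56%, 9.54% and 6.86% of all scaled reads in vector 1, 2 and 3, and 7.42%, 7.41% and 6.50% in nPD-L1 1, 2 and 3. Vector 2 stood above the 5 other libraries, which lay close together, and the groups overlapped. The group means were 7.99% ± 1.39 (SD, n = 3) and 7.11% ± 0.523 (SD, n = 3), so the difference between groups was smaller than the spread of the vector libraries.

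**Figure D1:**
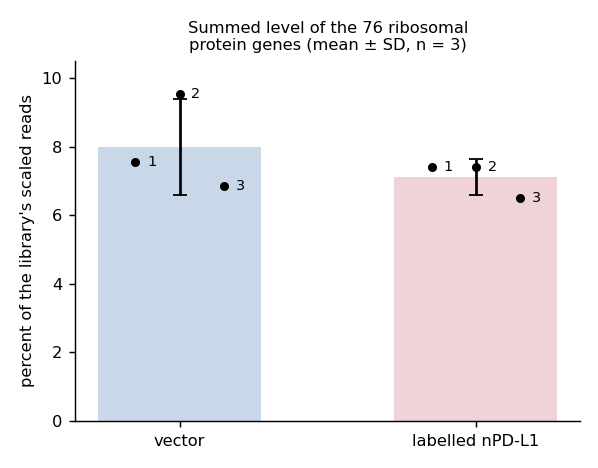
Share of each library's scaled reads on the 76 ribosomal protein genes, in percent. Bars give the group mean and error bars the SD of 3 libraries, and points are libraries with their replicate number. Vector 2, at 9.54%, is the highest, and the 5 other libraries lie between 6.50% and 7.56%.

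What the members did share was their movement from library to library within a group. Relative to the mean of their own group on the log2 scale, 74 of 76 were above it in vector 2, but 4 in vector 1 and 2 in vector 3. In the libraries labelled nPD-L1, 65 were above the mean in replicate 1, 74 in replicate 2 and 3 in replicate 3. Over all tested genes these shares were between 47.9% and 52.6%, but the scaling of the libraries holds them in that region. A closer comparison is with the 211 other coding genes under 1000 bases described below. Of these, 28, 203 and 6 were above their group mean in vector 1, 2 and 3. In nPD-L1 1, 2 and 3 the counts were 145, 186 and 13. The median deviation of the members was −0.09, 0.35 and −0.24 in vector 1, 2 and 3, and 0.07, 0.08 and −0.14 in nPD-L1 1, 2 and 3.

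A shift common to all members held 74.8% of their squared deviation within groups. Over all genes this share is 0.161%, but the scaling of the libraries holds it near 0 and it is no baseline. In the classes of other genes by transcript length described below it was between 3.20% and 71.0%. That share uses the mean deviation of each library. With the members' median deviation in each library taken out instead, the median SD within groups fell from 0.246 to 0.0524 on the log2 scale. Vector 2 had the highest of the 6 values in 73 members, where it was at the median 43.2% above the mean of vector 1 and 3. nPD-L1 3 had the lowest in 66. Counting error was far smaller than this. For the 71 members averaging 1000 scaled reads or more it came to at most 2.47% of a value, while the SD among libraries was 22.4% of the mean for the vector group and 9.09% for the other group, at the median member. These points share their library and its depth, and they are given as a description.

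**Figure D2:**
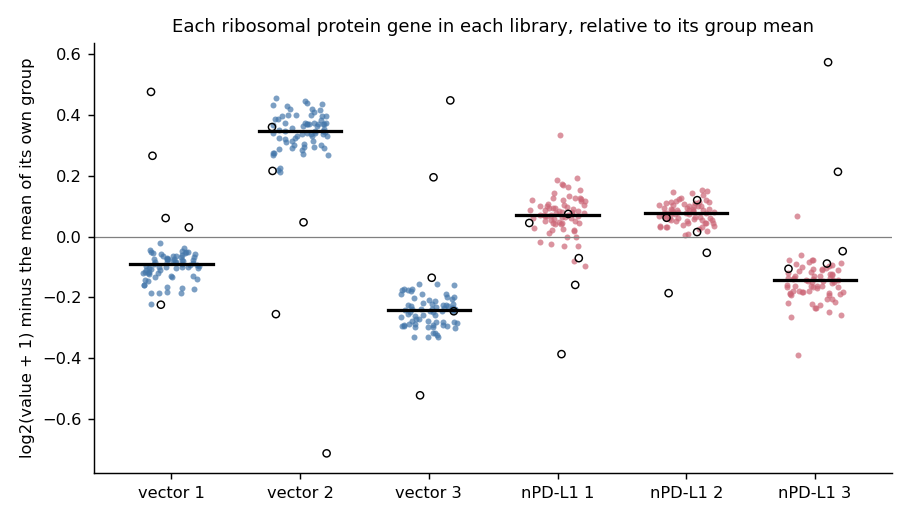
Each of the 76 ribosomal protein genes in each library, as log2(scaled reads + 1) minus the mean of its own group. Points are genes, black lines are medians, and open circles are the 5 genes with over 50% of their transcript inside another coding gene. The points of a library form a narrow band, at a median of 0.35 in vector 2 and −0.24 in vector 3, from which several open circles stand apart.

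Because vector 2 carried most of this spread, the comparison was also made without it. The median log2 fold change of the members was then −0.02, beside −0.01 over all genes, with 48 members below 0 and 28 above. Again none was called. Most of the lean of the members below 0 was thus lost without that library. Vector 2 was singled out because the members were highest there, so leaving it out was bound to move their median up. Without vector 1 or vector 3 instead the median was −0.24 or −0.31. Without nPD-L1 1, 2 or 3 it was −0.23, −0.22 or −0.11.

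A movement of the same direction and like size was seen in other genes with short annotated transcripts. The members' principal transcripts (GENCODE release 29) had a median length of 863 bases, against 2776 over all tested genes. Other coding genes whose mean reached 1000 scaled reads were split by transcript length, into classes chosen after the values were seen. The 211 genes under 1000 bases had a median log2 fold change of −0.18 and a median deviation of 0.30 in vector 2, close to the −0.19 and 0.35 of the ribosomal protein genes. From 1000 to 2000 bases (791 genes) these were −0.13 and 0.17, and from 2000 to 4000 bases (1567 genes) −0.04 and 0.02. In the 1466 genes of 4000 bases or more the signs were turned, with 0.07 for the fold change and −0.12 for vector 2. The members did not divide this way by annotated length, and whether the annotated transcript is the expressed one was not tested. The 14 with a principal transcript over 2000 bases had a median deviation of 0.36 in vector 2, and the 62 others had 0.34. RPL37 (7686 bases), RPL27A (4916), RPL28 (4796) and RPL13 (4498) stood at 0.40, 0.36, 0.35 and 0.37, and RPL14 (7072) at 0.21. The coding sequences of these genes are 291 to 645 bases long. They are the 5 members of 4000 bases or more, a limit chosen after their values were seen.

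At a like transcript length, genes with and without a TOP start had similar shifts, with no test made. A TOP start here means a C on a listed start, followed by at least 4 pyrimidines. Genes counted as without can hold such a run nearby. It began within 10 bases of the start in 56 of 61 members and in 42.2% of tested coding genes. The comparison therefore cannot tell genes with a run from genes with none. Among other genes under 1000 bases, the 15 with a TOP start had a median deviation of 0.34 in vector 2 and the 146 without had 0.30. Among those of 4000 bases or more, the 88 with a TOP start had −0.09 and the 1124 without had −0.13. The 45 ribosomal protein genes with a TOP start and the 16 without stood at 0.36 and 0.32. RNA quality and library preparation were not measured in these files, and their part in the shift of vector 2 was not tested.

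**Figure D3:**
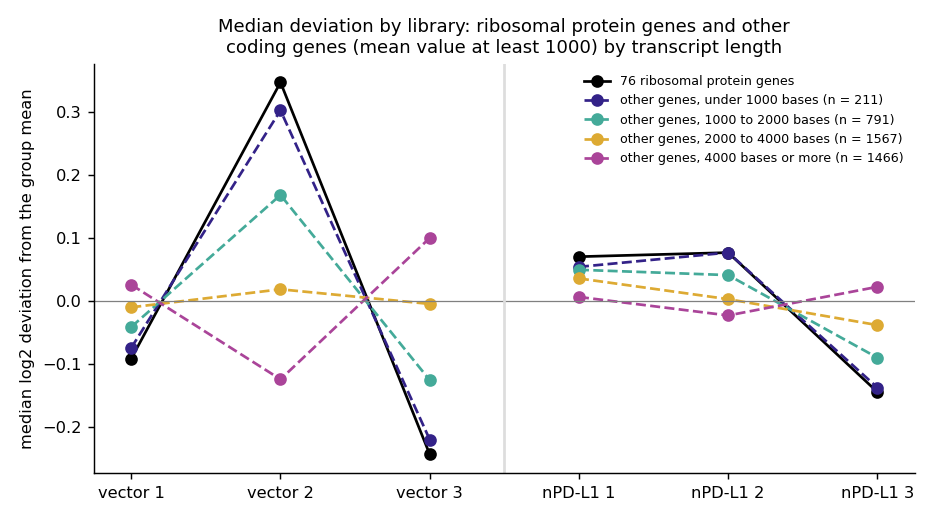
Median deviation from the group mean (log2) in each library, for the 76 ribosomal protein genes (solid black) and for other coding genes whose mean reached 1000 scaled reads, by transcript length (dashed). In vector 2 the medians of the other genes fall in order of length, from 0.30 under 1000 bases to −0.12 at 4000 bases or more, and the ribosomal protein genes stand at 0.35.

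The stalk recruits elongation factors to the large subunit, and of its genes RPLP0 had the highest level of all members per length of transcript. RPLP0 anchors the stalk to the ribosome, and it had 71250, 90780 and 61806 scaled reads with vector and 70606, 70351 and 59429 in libraries labelled nPD-L1. Its log2 fold change was −0.15 ± 0.15 (SE). RPLP1, one of the acidic proteins bound to it, had 34521, 49814 and 29416 against 33519, 33945 and 27671. RPLP2, the other acidic protein, had 13565, 19582 and 12081 against 13229, 13161 and 10909. In all of the stalk genes vector 2 was the highest library and nPD-L1 3 the lowest, and the groups overlapped. The log2 fold changes of RPLP1 and RPLP2 were −0.23 and −0.25, with intervals of −0.63 to 0.17 and −0.63 to 0.12.

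RPL5 and RPL11 form the particle with 5S ribosomal RNA that can bind MDM2. RPL5 had 16371, 21129 and 15497 scaled reads with vector and 16365, 16376 and 14970 in libraries labelled nPD-L1 (log2 fold change −0.14 ± 0.13, SE). RPL11 had 11906, 14920 and 10692 against 11775, 11212 and 9972 (−0.18 ± 0.14, SE). In both genes vector 2 was the highest library and nPD-L1 3 the lowest, and the groups overlapped. MDM2, their partner, had a log2 fold change of −0.24 ± 0.10 (SE, limma adjusted p = 0.283). This was the lowest in a list that holds MDM2 and genes that control ribosomal protein mRNAs.

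RPL3 lies next to the centre where peptide bonds are formed. Its scaled reads were 36305, 49181 and 33443 against 36795, 40669 and 34667, and its log2 fold change of −0.07 ± 0.15 (SE) was the highest below 0. RPL10, which joins the large subunit late in its assembly, had 39933, 50721 and 35194 against 39986, 38241 and 32067 (−0.18). RPL13A, which also has a known role in silencing inflammatory mRNAs, had 53312, 72955 and 46257 against 50694, 52364 and 42624 (−0.22). RPL19 and RPL8, both of the large subunit and of the highest level per length of transcript, had log2 fold changes of −0.14 and −0.18. RPL39 and RPL41, the smallest proteins of the ribosome, had −0.17 each, with 8207 to 13946 scaled reads per library for RPL39 and 17257 to 28610 for RPL41. RPL39, RPL41, RPL19, RPLP0 and RPL3 were above 0 without vector 2, at 0.06, 0.03, 0.00, 0.00 and 0.10.

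In the small subunit, RPS6, the substrate of the S6 kinases, had 29038, 38871 and 27283 scaled reads with vector against 29128, 28270 and 25987 (log2 fold change −0.18 ± 0.14, SE). RPS3, which lines the entry of the mRNA and also acts in DNA repair, had 35417, 46742 and 29922 against 33218, 35116 and 28833 (−0.19). RPS2, its neighbour at the mRNA entry, had −0.20. RPS27A is made as a fusion with ubiquitin, and its log2 fold change was −0.22. RPS19 and RPS14, whose loss on one allele causes anaemias, had −0.22 each, with 27790 to 48836 and 16183 to 27725 scaled reads per library. In each of these 6 genes vector 2 was again the highest library and nPD-L1 3 the lowest.

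The 5 lowest log2 fold changes were those of RPL36 (−0.26), RPS16 (−0.25), RPLP2 (−0.25), RPS28 (−0.25) and RPS29 (−0.25). RPL36 had 8011, 10880 and 6855 scaled reads with vector and 8030, 7194 and 6024 in libraries labelled nPD-L1 (95% interval of the fold change −0.63 to 0.11). Vector 2 was its highest library, and the groups overlapped. When each gene was set against the median member of its own library, 2 of the 76 did not overlap between groups, against 13.4% of all genes on that scale. They were RPS16, with a difference of −0.07 (0.78 against 0.71 above the median member, log2), and RPLP2, also at −0.07. On the same scale RPL3 stood 1.16 above the median member in the vector group and 1.28 in the other, and its groups overlapped.

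**Figure D4:**
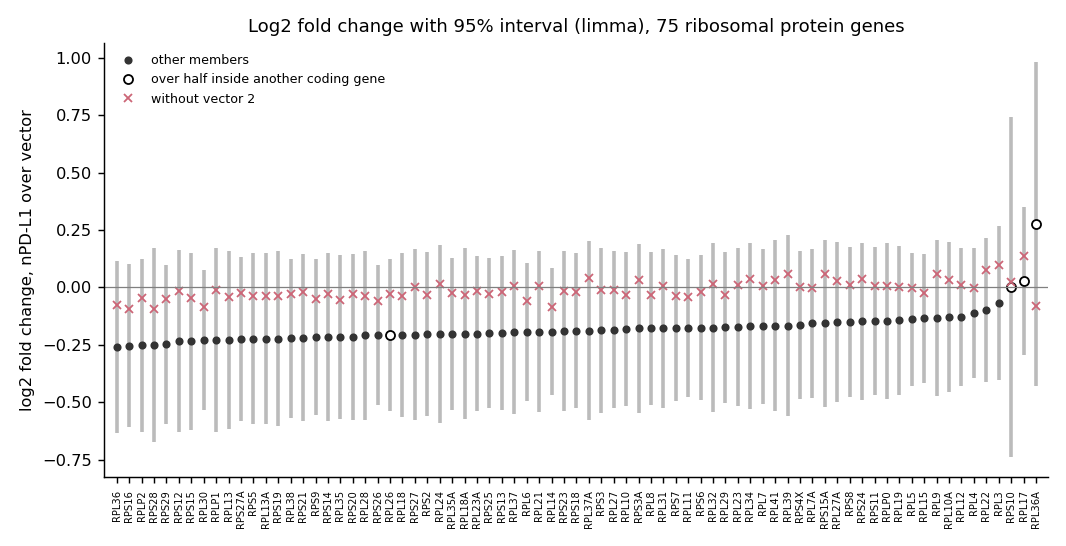
Log2 fold change (libraries labelled nPD-L1 over vector) of 75 of the 76 ribosomal protein genes in order of size, with 95% intervals from limma as grey bars. Open circles are genes with over 50% of their transcript inside another coding gene, and crosses give the value without vector 2. 72 points lie below 0, every interval holds 0, and the crosses scatter about a median of −0.02.

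RPS10, RPL17 and RPL36A had log2 fold changes of 0.00, 0.03 and 0.27, whose signs turned under other settings, and they were the 3 members with the lowest levels. Levels between genes were compared as scaled reads per kilobase of principal transcript, set to the same sum of 1000000 in every library. The median member stood at 1807, against 12.9 for all tested genes, and 57 members were above the 99th percentile of all genes (852). The highest were RPLP0 (5863), RPS16 (5170), RPL8 (5119), RPS2 (5089) and RPL19 (4951). The lowest were RPS10 (4.56), RPL17 (43.8) and RPL36A (47.4), and RPS15A (88.1) was also among the low ones. For 14 members the principal transcript is annotated at over 2000 bases, RPS15A among them, which lowers this measure. Per kilobase of coding sequence the same 3 genes were lowest, and RPL41, whose coding sequence is 75 bases, was highest at 14480. Of the 5 highest, only 1, RPLP0, was shared by both measures.

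RPS10 (ENSG00000124614, chr6:34417454-34426125, GRCh38, minus strand), a protein in the head of the small subunit, had only 38.4, 28.2 and 18.7 scaled reads with vector and 24.4, 26.3 and 31.8 in libraries labelled nPD-L1. 77.0% of its principal transcript lies in exons of the read-through gene RPS10-NUDT3 on the same strand, which was itself at 0 in 5 of 6 libraries and at 2.52 in the other. RPL36A (ENSG00000241343, chrX:101390824-101396154, plus strand) had 197, 99.4 and 223 against 151, 174 and 295, and 77.6% of its transcript lies in RPL36A-HNRNPH2. This gene had the highest log2 fold change of the members (0.27 ± 0.32, SE), and without vector 2 it was −0.08.

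RPL17 had 298 to 411 scaled reads per library, with 68.6% of its transcript inside RPL17-C18orf32. RPL26, which lies to 59.0% inside AC135178.2, had 808 to 1290 scaled reads per library. RPS15A had 1638 to 2619. How reads on shared exons were assigned is not given in the sources used here, and the part of these overlaps in the low levels was not tested. RPL26 and RPL17 were highest in vector 2 like most members, and RPS10 and RPL36A were not. Over the 5 members with over 50% of their transcript in another coding gene the common shift held 9.45% of their squared deviation within groups, against 93.6% for the 71 remaining members, all of which were above their group mean in vector 2.

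**Figure D5:**
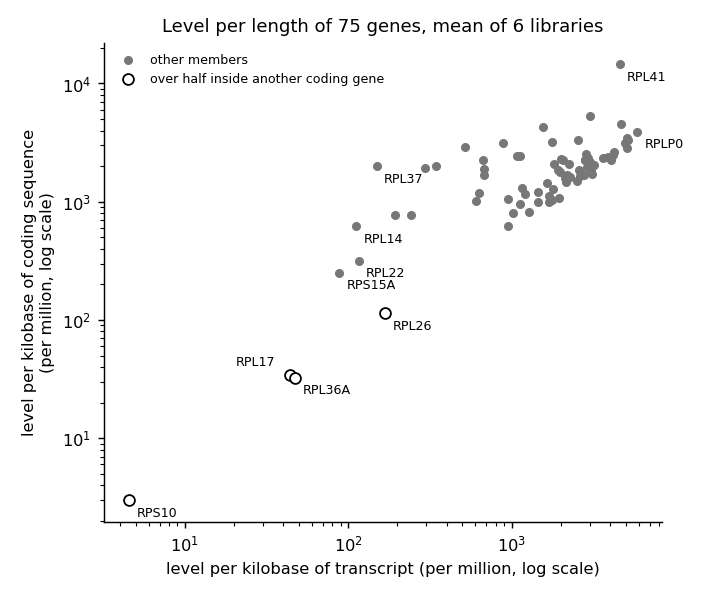
Mean level of 75 of the 76 ribosomal protein genes over 6 libraries, per kilobase of principal transcript (horizontal) and per kilobase of coding sequence (vertical), both set to a sum of 1000000 per library and on log axes. Open circles are genes with over 50% of their transcript inside another coding gene. They form the lower left corner, from RPS10 at 4.56 per kilobase of transcript to RPL26 at 168.

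27 members hold 58 annotated small nucleolar RNA genes within their bounds on the same strand. Such guides of ribosomal RNA modification are made from the host's transcript. Ribosomal protein pseudogenes, which are copied from these mRNAs and can share their reads, had 276 rows, of which 73 passed the filter. None was called, their median log2 fold change was −0.21, and they held 0.288%, 0.365% and 0.261% of all scaled reads with vector and 0.283%, 0.281% and 0.245% in libraries labelled nPD-L1. Vector 2 was the highest and nPD-L1 3 the lowest here too. The common shift held 27.1% of the pseudogenes' squared deviation within groups, against 74.8% for the members, and 16 of the 73 were above their group mean in vector 1, against 4 of 76.

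Genes of the same pathway were read from lists, whose counts of called genes stand beside 4.96% of all tested genes. RPSA, FAU and RACK1, ribosomal proteins outside the name pattern, had 0 of 3 called and a median log2 fold change of −0.19, between −0.25 (FAU) and −0.14 (RACK1). Their movement was that of the members, above the group mean in vector 2 in 3 of 3 and in vector 3 in 0 of 3. Of 8 paralogues 6 were tested, none was called, and values ran from −0.31 (RPL39L) to −0.08 (RPL7L1). Of elongation factors and other TOP mRNAs 0 of 16 were called, with a median of −0.08, from −0.17 (EIF3K) to 0.11 (EIF4A2). Initiation factors had 0 of 27 called and a median of −0.09, from −0.36 (EIF3C) to 0.28 (EIF4A1).

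Of 50 genes of ribosomal RNA synthesis and ribosome assembly, 1 was called, where 4.96% of all tested genes were. UBTF, the factor that keeps ribosomal RNA genes open for RNA polymerase I, had 2396, 2131 and 2316 scaled reads with vector. In libraries labelled nPD-L1 it had 3334, 2921 and 2892, so that the groups did not overlap. The same held for 11 of the 50 genes and for 20.6% of all tested genes. The log2 fold change of UBTF was 0.42 ± 0.10 (SE, limma adjusted p = 0.0407). This call was lost under 6 of 21 alternatives, with an adjusted p of up to 0.174. These were upper-quartile scaling and each of 5 left-out libraries (all except vector 2). The median of this list was −0.12, and its lowest was RRS1, an assembly factor of the large subunit, at −0.42 (adjusted p = 0.149). Vector 2 did not stand out in it, with 23 of 50 above their group mean.

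Among the genes that control ribosomal protein mRNAs, listed together with MDM2, 0 of 16 were called, from −0.24 (MDM2) to 0.29 (RPS6KB1, the S6 kinase). Noncoding hosts of small nucleolar RNAs with a TOP start had 0 of 12 called and values of −0.30 (SNHG8) to 0.02 (SNHG3). The proteins of the mitochondrial ribosome, which are encoded in the nucleus and whose mRNAs are also short, had 0 of 77 called and a median of −0.17, from −0.41 (MRPL54) to 0.04 (MRPL49). 72 of these 77 were above their group mean in vector 2, and the common shift held 47.6% of their squared deviation within groups. Without vector 2 their median was −0.08.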

How the data were processed

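RNA-seq was done on 6 libraries labelled Hep3B, assigned to groups by sample title. The deposited values are a signal, called raw by the authors, that equals whole reads divided by 1 factor per library. 100% of nonzero values were whole multiples of the value of 1 read within 0.001 read. Recovered depths were 17427519 to 22253295 reads on genes. The submitters' processing notes name CASAVA, HISAT2 2.0.5 and hg38. The counter, annotation and strand setting are not given in the sources used here, although 27004 of 27009 gene positions equal those of GENCODE release 29. Deposited group means, fold changes and p-values of the authors' comparison were not used.

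edgeR's quasi-likelihood test had been planned for raw counts. Because the values are scaled, limma (3.58.1, R 4.3.3) was run on log2(value + 1), with trend and robust moderation and Benjamini-Hochberg adjustment over 15076 genes (those reaching 10 in no fewer than 3 libraries). A log2 fold change on this scale understates changes of low genes. edgeR (4.0.16) and DESeq2 (1.42.0) on recovered reads were alternatives, beside other scalings, filters, pseudocounts, length trends and left-out libraries. The limma step was tested on simulated data. Unlike the data here, these had no shift common to the genes of a library, so that setting was not tested.

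Members and lists were chosen with earlier results of these data known. Named members were the 5 highest and 5 lowest in fold change and in level per length, and 15 of known role, and RPL30 and RPL26 were named after their values were seen. Other lists gave every called gene and both extremes. 1 member is not reported here by name, though it is in the counts over members. Transcript lengths come from GENCODE (APPRIS principal) and start sequences from RefSeq (GRCh38.p14).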

Additional observations from a re-analysis of the deposited data

How the results depend on the processing

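In all 21 alternative fits 0 members were called higher or lower, and the lowest adjusted p of any member was 0.0634 (RPS29, with the replicate number as a block and the gene length trend removed). The median log2 fold change of the members stayed below 0 in each, from −0.31 to −0.02, with −0.24 under upper-quartile scaling, −0.12 with the gene length trend removed and −0.08 with the transcript length trend removed, the last chosen after seeing the data. Leaving out 1 library moved it between −0.31 and −0.02, the latter without vector replicate 2. Without vector replicate 3, 21 members passed an unadjusted p under 0.05, as did 18.2% of all tested genes. Without the 5 most abundant members the summed level was 6.43% in the vector group and 5.71% in the other, and with 1 library left out it was 7.21% to 8.55% and 6.96% to 7.41%.

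The sources used here do not say whether replicate numbers pair the libraries. Over all tested genes, deviations of same-numbered libraries correlated at −0.01, 0.23 and 0.13. Libraries of different number were not compared, so these values cannot decide on pairing. The members' median deviation was highest in replicate 2 (0.35 and 0.08) and lowest in replicate 3 (−0.24 and −0.14) of both groups. With the replicate block, 0 members were called, 6 passed an unadjusted p under 0.05 (18.6% of all tested genes), the median was −0.19, and 1185 of all genes were called instead of 748.

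Of the 26 members named by rule and reported here, single fits turned the sign in 18 cases, none with a call. RPS10, at 0.00, was −0.0503 in DESeq2, −0.0405 in edgeR, −0.00807 with a pseudocount of 10, −0.0481 under upper-quartile scaling and −0.260 to 0.239 with 1 library left out. RPL17 was −0.0219 under upper-quartile scaling and −0.0936 to 0.137 with 1 library left out. RPL3 was 0.0425 with the transcript length trend removed, and −0.180 to 0.0981 with 1 library left out. The ranges with 1 library left out were −0.248 to 0.00409 for RPL19, −0.0819 to 0.499 for RPL36A, −0.325 to 0.0563 for RPL39, −0.306 to 0.0324 for RPL41, −0.273 to 0.00486 for RPLP0 and −0.278 to 0.0606 for RPS15A. Depth limits RPS10, with under 40 reads in a library.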
